A study of Homo sapiens with 56 samples.

Results

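The 45 genes described here encode the machinery that copies DNA in the nucleus, and were chosen by name, as a list of gene symbols drawn up with earlier results of these data known. They comprise the 6 subunits of the origin recognition complex (ORC1 to ORC6), the loading factors CDC6 and CDT1, the 6 subunits of the MCM helicase, MCM10, CDC45 with the 4 GINS subunits, the kinase CDC7 with its activator DBF4, 9 subunits of the DNA polymerases and primase, the sliding clamp PCNA with 5 subunits of its loader, the 3 subunits of the single-strand binding protein RPA, FEN1 and LIG1, and the fork factors TIMELESS, CLSPN and WDHD1. All 45 were found by symbol in both deposited tables, which hold 16485 genes for HCT116, DLD1, LoVo and SW948 and 16454 genes for HT29, SKCO1 and SW1417. All 45 passed the filter on low counts in each of the 7 lines.

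The 7 lines are established human colorectal cancer cell lines, labelled as epithelial and wild-type. In each, 4 libraries came from cells given 10 mM 2-methylisocitrate (2-MiCit), an intermediate of the bacterial methylcitrate cycle, and 4 from cells given water, its vehicle, which makes 56 libraries in 14 groups. How long the cells were treated is not stated in the labels. Each group models 1 cell line in culture, and no library is labelled as having received a chemotherapy drug. The labels do not say whether the 4 libraries of a group came from separate cultures, so each p-value speaks for the variation among these libraries alone, and that variation may be technical.

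Depth was 13.8 to 19.4 M counts per library for HCT116, DLD1, LoVo and SW948 (the first table) and 29.1 to 45.4 M for HT29, SKCO1 and SW1417 (the last table), which were thus measured with less counting error. All 9 epithelial markers were in both tables, and 7 of the 9 exceeded 1 CPM in HCT116 and all 9 in the other lines. The summed epithelial level differed with treatment in HCT116, at 6532 to 7455 CPM with 2-MiCit against 4684 to 5198 CPM in control. Its part in the results for HCT116 was not tested. Endothelial markers stayed under 2 CPM in sum in every library. Fibroblast markers were highest in HCT116, at 16.3 to 22.2 CPM in sum with 2-MiCit and 14.7 to 22.2 CPM in control. Of the leukocyte list, LYZ, which intestinal epithelium also makes, carried nearly the whole sum where it was high, with 1778 to 1865 CPM in HT29 with 2-MiCit and 1684 to 1750 CPM in HT29 control.

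DNA replication starts in G1, when ORC, CDC6 and CDT1 load the ring of MCM2 to MCM7 onto origins in an inactive form. In S phase the kinase CDC7-DBF4 and further firing factors recruit CDC45 and GINS, which turn the ring into the active helicase. Polymerase alpha with primase then lays down primers, polymerases delta and epsilon extend them on the PCNA clamp that the RFC complex loads, and FEN1 and LIG1 trim and seal the fragments of the lagging strand. Most of these genes are transcribed in waves around the start of S phase, many under E2F transcription factors. In bulk RNA, fewer cells in that phase and less RNA per cell cannot be told apart.

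At least 39 of the 45 replication genes leaned lower with 2-MiCit in each of 5 lines, and most of the calls were in HCT116 and SKCO1. The log2 fold change, 2-MiCit over control, was negative for 42 of the 45 genes in HCT116, 39 in DLD1, 40 in LoVo, 25 in SW948, 26 in HT29, 41 in SKCO1 and 39 in SW1417, and for 46.6% to 50.5% of all tested genes in the 7 lines. A gene was called at an adjusted p below 0.05 in edgeR's quasi-likelihood test of 2-MiCit against control within a line. In HCT116, 37 of 45 were called lower, where 18% of all tested genes were. In SKCO1, 25 of 45 were called lower, against 10.8% of all tested genes. In SW1417, 8 of 45 were called lower, against 4.05% of all tested genes. The counts were smaller in the other lines, with 3 in HT29, where 3.02% of all tested genes were called lower, and 1 in LoVo, where 0.702% were. In DLD1 and SW948 none of the 45 was called lower by edgeR, where 0% of all tested genes were. At an unadjusted p below 0.05, 1171 genes were lower in DLD1 and 409 in SW948. DESeq2 called 6 of the 45 lower in DLD1, and 1.34% of all genes with an adjusted p. None of the 45 was called higher in any line by this test, which used no block on library number. Of all tested genes, 19% were called higher in HCT116, 0.148% in DLD1, 1.59% in LoVo, 0% in SW948, 8.1% in SKCO1, 4.65% in HT29 and 2.94% in SW1417.

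The counts in HCT116 and SKCO1 held when any 1 library was left out, at 29 to 36 and 23 to 27. Of all tested genes, 14% to 18.8% and 7.76% to 11.7% were then called lower. In SW1417 the count was 13 without 2-MiCit library 4 (4.71% of all tested genes) and 3 without 2-MiCit library 1 (2.62%) or 2 (2.42%). Without any other single library it was 4 or 5 (2.13% to 4.19%). In LoVo it was 4 without control library 1 (3.91%). It was 0 without 2-MiCit library 1, 2 or 3 or control library 2 or 3 (0.0289% to 0.276%). In HT29 it was 1 without 2-MiCit library 3 or 4 or control library 1, 2 or 3 (1.09% to 1.99%). Without both libraries numbered 2, which stood high as described below, it was 2 (2.9%). When the lines of a table shared 1 fit, they also shared 1 estimate of the spread. In that fit 9 were called lower in SKCO1 (6.28% of all tested genes) and 1 in SW1417 (1.41%). There were 6 in HT29 (7.89%) and 13 in DLD1 (3.92%). With the authors' scaled counts and limma, 14 were called in SKCO1 (5.15%), 1 in SW1417 (0.923%) and 0 in HT29 (1.28%).

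The shifts were modest in size. The median log2 fold change of the 45 genes, 2-MiCit over control, came to -0.32 for HCT116, -0.14 for DLD1, -0.12 for LoVo, -0.02 for SW948, -0.03 for HT29, -0.13 for SKCO1 and -0.07 for SW1417. Over all tested genes the median lay between -0.002 and 0.027. DLD1 and SKCO1 thus had near-equal medians with 0 and 25 calls, and the biological coefficient of variation, the spread between libraries that the fit estimates, was 0.183 in DLD1 and 0.0742 in SKCO1. The count of calls therefore does not rank the lines by the size of the shift. The HT29 median moved with the libraries numbered 2. Without 2-MiCit library 2 it was -0.121, with 39 of the 45 genes negative. Without control library 2 it was 0.008, with 19 negative, and without both it was -0.063, with 30 negative.

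**Figure D1:**
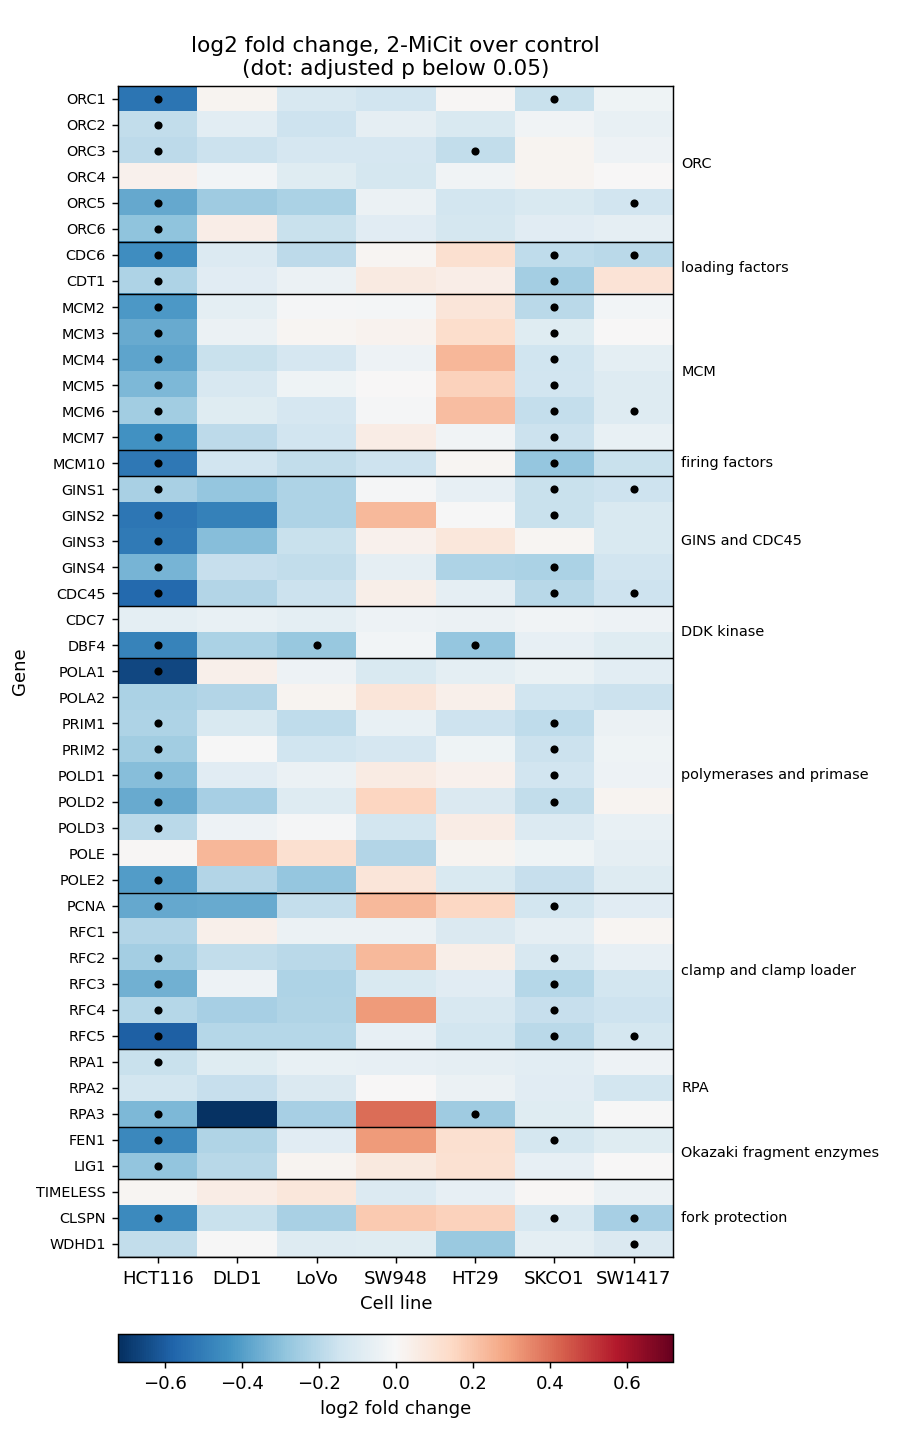
Log2 fold change of each of the 45 genes (rows, grouped by complex) in each line (columns), with blue for lower and red for higher with 2-MiCit than in control and a dot where the adjusted p was below 0.05. Dots fill most of the HCT116 column and 25 cells of the SKCO1 column, and no cell called higher appears.

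The libraries one by one gave another order of the lines, with DLD1 and LoVo above SW1417. All 4 libraries with 2-MiCit lay below all 4 control libraries for 35 of the 45 genes in HCT116, 14 in DLD1, 16 in LoVo, 1 in SW948, 4 in HT29, 26 in SKCO1 and 10 in SW1417. Over all tested genes 17.2% were separated in this direction in HCT116, 6.1% in DLD1, 6.43% in LoVo, 2.71% in SW948, 7.31% in HT29, 12.5% in SKCO1 and 7.68% in SW1417. In DLD1 and LoVo, then, 31.1% and 35.6% of the replication genes were separated although 0 and 1 passed the adjusted threshold. In the other direction, RFC4 in SW948 and CDT1 in SW1417 had all 4 libraries with 2-MiCit above all 4 controls, and neither was called. Over all tested genes 18.4% were separated upward in HCT116, 7.75% in DLD1, 6.98% in LoVo, 2.49% in SW948, 9.02% in HT29, 10.4% in SKCO1 and 6.58% in SW1417.

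Of the 45 genes, 7 were called lower in 3 lines, 22 in 2 lines, 9 in 1 line and 7 in none. RFC5, CLSPN, CDC45, GINS1, CDC6 and MCM6 were called in HCT116, SKCO1 and SW1417, and DBF4 in HCT116, LoVo and HT29. All 25 genes called in SKCO1 (100%) were among the 37 called in HCT116 (67.6% of them), as were 7 of the 8 called in SW1417 (87.5%). Of the 45 members, 82.2% were called in HCT116, so the overlap with SW1417 was near that share. The overlap over all tested genes was not counted. WDHD1, a DNA polymerase alpha partner, was the exception, called in SW1417 alone by the test without a block. The 7 genes called in no line were RPA2, POLA2, POLE, RFC1, TIMELESS, ORC4 and CDC7. In HCT116 libraries of the same number deviated together. With the number as a block in the edgeR fit, 41 of the 45 genes were called lower there, where 24.2% of all tested genes were. The 4 genes gained were RFC1 (log2 fold change -0.21, adjusted p = 0.000587), WDHD1 (-0.18, adjusted p = 0.00322), POLA2 (-0.23, adjusted p = 0.0104) and RPA2 (-0.13, adjusted p = 0.0181), each lower with 2-MiCit within all 4 numbers. POLE, TIMELESS, ORC4 and CDC7 were not called in HCT116 with the block either. In HT29 same-numbered libraries deviated together less strongly than in HCT116. The block gave 5 members lower there (7.45% of all tested genes): DBF4, RPA3, ORC3, WDHD1 and RFC1. WDHD1 (log2 fold change -0.27, adjusted p = 0.01025) and RFC1 (-0.11, adjusted p = 0.0458) were gained. PCNA and MCM6 were called higher in HT29 with the block. As a share of the 45, that is below the 8.28% of all tested genes called higher.

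The promoters of 3 members are shown because E2F sites are the textbook link between these genes. All 3 were called lower in both HCT116 and SKCO1, and each kept a long enough stretch, free of exon bases, that held a match. CDT1, MCM7, GINS2 and RFC3 also had E2F letters and were called lower in both lines, but kept no such stretch. The sequences are RefSeq's (GRCh38.p14), on the minus strand, 5′ to 3′, limited to bases that no annotated exon covers; capitals mark the E2F letters TTTCCCGC, TTTCGCGC, TTTGCCGC or TTTGGCGC, read on both strands. The MCM3 stretch is chr6:52284882-52284992, the MCM6 stretch chr2:135876444-135876693 and the PCNA stretch chr20:5126627-5126785. In MCM6 each capital run holds 2 matches that overlap on opposite strands.
MCM3: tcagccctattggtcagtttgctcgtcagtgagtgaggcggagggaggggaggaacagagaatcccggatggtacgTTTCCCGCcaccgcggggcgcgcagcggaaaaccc
MCM6: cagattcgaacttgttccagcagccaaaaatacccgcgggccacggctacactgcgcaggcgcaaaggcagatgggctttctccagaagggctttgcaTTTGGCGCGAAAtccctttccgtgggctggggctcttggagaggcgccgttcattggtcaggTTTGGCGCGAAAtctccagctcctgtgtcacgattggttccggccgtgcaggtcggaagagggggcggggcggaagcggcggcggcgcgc
PCNA: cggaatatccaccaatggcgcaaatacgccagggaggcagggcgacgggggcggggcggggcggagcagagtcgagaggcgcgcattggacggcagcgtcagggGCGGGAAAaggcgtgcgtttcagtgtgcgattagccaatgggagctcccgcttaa

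Of the 45 members, 39 matched a promoter in the RefSeq table, and the 250 bases before the start were searched in each. The E2F letters occurred in 12 of the 39 (30.8%), against 2.79% of all 35116 promoters of that length. The letters CCAAT occurred, on either strand, in 22 (56.4%), against 32% of all promoters. TTTGAA or TTTAAA, the letters of the cell cycle homology region found at many mitotic genes, occurred in none, against 21.9% of all promoters. The share of G and C in the members' windows ran from 39.6% (PRIM2) to 79.2% (GINS2). The promoters compared were not matched for this share, and its part in these differences was not tested. Calls were near-equally frequent with and without a match. In HCT116, 10 of 12 genes with the E2F letters were called lower and 22 of 27 without them, and in SKCO1 the counts were 7 of 12 and 15 of 27. A match is only a run of letters and does not show binding.

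Levels differed widely between the members before any treatment. Per kb of transcript, the control level ran in HCT116 from 6.47 CPM per kb for POLD3, a subunit of polymerase delta, to 274.3 ± 14.5 for PCNA (SD, n = 4), with a median of 30.33. PCNA or MCM7 had the highest control level in all 7 lines, with 79.4 ± 3.32 CPM per kb for MCM7 in HT29 and 367.5 ± 2.27 in SW1417. In SW948 MCM7 at 175.2 ± 2.63 and PCNA at 170.1 ± 9.87 CPM per kb did not differ beyond their spread. The lowest place went to POLD3 in HCT116, POLE2 in DLD1, GINS4 in LoVo, HT29 and SKCO1, GINS3 in SW948 and ORC4 in SW1417. HT29 had the lowest median control level, 15.84 CPM per kb. The tables were scaled separately, so levels of lines in different tables are set side by side only as a description.

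**Figure D2:**
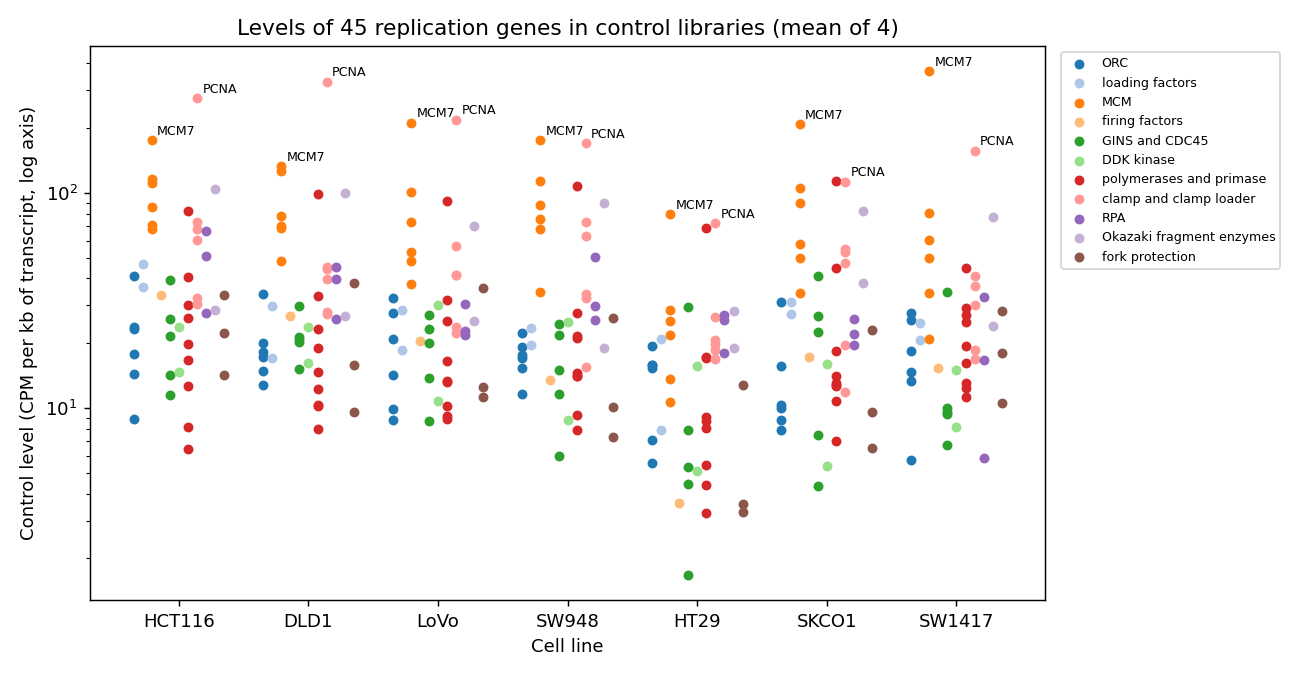
Control level of each of the 45 genes in CPM per kb of transcript (log axis, mean of 4 libraries), by line and coloured by complex. PCNA or MCM7 stands at the top of each line, and HT29 has the lowest median, 15.84 CPM per kb.

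Among the origin recognition genes, 5 of 6 were called lower in HCT116 and 1 in each of HT29, SKCO1 and SW1417, a different gene each time. ORC1, a subunit whose level varies through the cell cycle, had 36.1, 42.1, 39.9 and 43.6 CPM in HCT116 with 2-MiCit and 50.2, 59.1, 58.4 and 65.2 CPM in control. The groups did not overlap, and the log2 fold change was -0.53 (SE 0.088, adjusted p = 0.00115). In SKCO1 it had 26.6, 26.3, 25.7 and 24.4 CPM with 2-MiCit and 27.9, 29.8, 29.04 and 28.4 CPM in control, again without overlap but with a smaller shift (log2 fold change -0.16, adjusted p = 0.0118). ORC5 was the member called in SW1417, at 45.6 to 48.2 CPM with 2-MiCit against 49.7 to 53.5 CPM in control (log2 fold change -0.14, adjusted p = 0.0203). ORC4 had log2 fold changes between -0.13 and 0.03 in all 7 lines and no call.

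ORC3 was the origin recognition gene called in HT29 (ENSG00000135336, chromosome 6, 87590067 to 87667453, GRCh38). Its values there were 36.2, 34.7, 34.3 and 32.2 CPM with 2-MiCit and 39.7, 40.0, 38.3 and 37.2 CPM in control. Every 2-MiCit library lay below every control library, with a log2 fold change of -0.18 (SE 0.05, adjusted p = 0.0468). The call was lost without any of 6 of the 8 libraries, with adjusted p up to 0.131, and without both libraries numbered 2 (adjusted p = 0.101).

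Of the loading factors, CDC6 fell in 3 lines and CDT1 in 2. CDC6 (ENSG00000094804, chromosome 17, 40287633 to 40304657), which recruits the MCM ring to ORC, had 127.8, 128.0, 142.1 and 139.0 CPM in HCT116 with 2-MiCit and 178.2, 180.8, 179.4 and 194.6 CPM in control. Its SKCO1 values were 119.5, 122.7, 119.1 and 119.0 CPM with 2-MiCit and 136.0, 139.1, 135.2 and 134.7 CPM in control. In SW1417 it had 97.3, 97.4, 102.1 and 103.9 CPM with 2-MiCit and 112.0, 110.3, 117.0 and 119.0 CPM in control. The groups were separate in all 3 lines, and the log2 fold changes were -0.45 in HCT116 (adjusted p = 0.000192), -0.18 in SKCO1 (adjusted p = 1e-04) and -0.19 in SW1417 (adjusted p = 0.00207). In HT29 its values overlapped, at 44.4, 45.3, 40.9 and 35.7 CPM with 2-MiCit and 41.1, 40.8, 37.2 and 34.0 CPM in control. CDT1, the other loader, was called in HCT116 (log2 fold change -0.22, adjusted p = 0.0213) and SKCO1 (-0.25, adjusted p = 0.000951).

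The helicase subunits moved as a group in HCT116 and SKCO1. All 6 MCM genes were called lower in both lines, with log2 fold changes between -0.43 and -0.25 in HCT116 and between -0.19 and -0.08 in SKCO1, and all 6 had separate groups in both. In SW1417 only MCM6 was called, and in DLD1, LoVo, SW948 and HT29 none was. MCM7 (ENSG00000166508, chromosome 7, 100092728 to 100101940) had the clearest values, with 401.1, 383.8, 410.3 and 403.9 CPM in HCT116 with 2-MiCit and 542.5, 545.9, 545.9 and 526.4 CPM in control. The gap between the groups was several times their spread, and the log2 fold change was -0.43 (SE 0.04, adjusted p = 6.26e-05). In SKCO1 it had 560.5, 566.9, 593.1 and 571.9 CPM with 2-MiCit and 631.0, 635.0, 648.9 and 632.0 CPM in control (log2 fold change -0.15, adjusted p = 0.000558). MCM7 overlaps AP4M1 on the other strand and is 1 of 13 members whose gene body overlaps another gene of the tables, RFC5, DBF4, GINS2, RFC4, FEN1 and RPA3 among them, so their counts are less certain where reads could be split.

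MCM6, whose promoter with its overlapping E2F letters is shown above, had 204.2, 217.3, 225.1 and 237.4 CPM in HCT116 with 2-MiCit and 246.7, 264.4, 259.6 and 282.3 CPM in control. The groups were separate there (log2 fold change -0.25, adjusted p = 0.00812), as they were in SW1417 at 114.5, 110.0, 114.6 and 119.6 CPM with 2-MiCit and 121.5, 122.5, 123.0 and 122.4 CPM in control (log2 fold change -0.09, adjusted p = 0.0491). In SKCO1 its log2 fold change was -0.17 (adjusted p = 0.000825).

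In HT29 most of the MCM genes leaned the other way. Of the 6, 5 had a positive log2 fold change, with a median of 0.15 over the 6. None was called without the block on library number, and MCM6 was called higher with it (0.21, adjusted p = 0.0105). MCM4 had 97.2, 159.6, 91.3 and 88.2 CPM in HT29 with 2-MiCit and 88.7, 116.0, 84.3 and 80.4 CPM in control. The second library of each group stood above the other 3, and the groups overlapped (log2 fold change 0.24, SE 0.23, adjusted p = 0.602). With the block on library number the log2 fold change was 0.21 (SE 0.06, adjusted p = 0.0675). The library numbered 2 stood high for most members. It was the highest of both groups for 36 of the 45 replication genes (80%), against 14.1% of all tested genes in HT29.

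**Figure D3:**
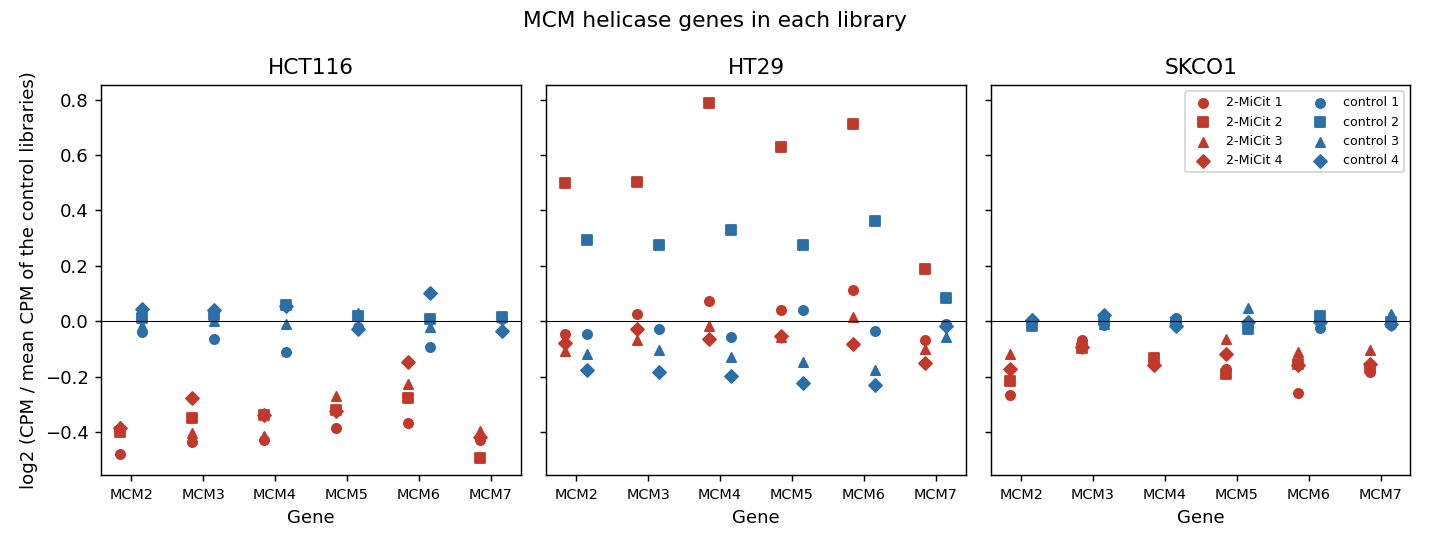
Log2 ratio of each library's CPM to the mean of the control libraries for MCM2 to MCM7 in HCT116, HT29 and SKCO1, with 2-MiCit libraries left of control libraries and a marker shape for each library number. In HCT116 and SKCO1 all 2-MiCit points lie below all control points, and in HT29 the library numbered 2 stands above the others for most of these genes in both groups.

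The firing factor MCM10 (ENSG00000065328, chromosome 10, 13161554 to 13211104), which activates the loaded helicase, had 75.3, 79.8, 74.1 and 79.8 CPM in HCT116 with 2-MiCit and 105.0, 106.0, 112.4 and 118.1 CPM in control. Its SKCO1 values were 43.8, 46.9, 48.0 and 46.4 CPM with 2-MiCit and 56.3, 58.1, 54.7 and 55.6 CPM in control. The groups were separate in both lines, with log2 fold changes of -0.51 (SE 0.06, adjusted p = 9.82e-05) and -0.28 (SE 0.03, adjusted p = 9.89e-05). In SW1417 the log2 fold change was -0.16 and the gene was not called (adjusted p = 0.0768).

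CDC45 and the GINS genes had the largest median shift of the complexes with 5 or more genes in HCT116, -0.51 on the log2 scale. There all 5 were called lower, in SKCO1 4 (all but GINS3) and in SW1417 2 (CDC45 and GINS1). CDC45 (ENSG00000093009, chromosome 22, 19479459 to 19520612), a partner that the active helicase needs, had 33.7, 32.2, 31.7 and 30.3 CPM in HCT116 with 2-MiCit and 48.1, 45.1, 44.5 and 50.8 CPM in control, a fall of 32.1% (log2 fold change -0.56, SE 0.06, adjusted p = 0.000153). In SKCO1 it had 74.4, 77.7, 79.3 and 76.0 CPM with 2-MiCit and 87.9, 88.4, 91.0 and 86.2 CPM in control (log2 fold change -0.20, adjusted p = 0.000267). The groups did not overlap in either line. In SW1417 it had 62.9, 62.3, 61.5 and 64.3 CPM with 2-MiCit and 67.0, 67.8, 71.0 and 72.0 CPM in control (log2 fold change -0.15, adjusted p = 0.00967).

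In DLD1 none of these 5 genes was called, yet all 5 had every 2-MiCit library below every control library. GINS2 (chromosome 16, 85676198 to 85690073) had 49.8, 56.6, 64.0 and 57.7 CPM in DLD1 with 2-MiCit and 99.7, 77.1, 67.8 and 74.9 CPM in control (log2 fold change -0.49, SE 0.13, adjusted p = 0.2). GINS3 had 26.8, 26.4, 30.0 and 29.03 CPM with 2-MiCit and 33.9, 34.7, 34.0 and 36.0 CPM in control (log2 fold change -0.30, SE 0.07, adjusted p = 0.189). The first control library was the highest for GINS2 and not for GINS3. That library had the steepest trend of level with transcript length in the first table, with a slope of -0.3 log2 units per doubling of length, where short transcripts read high. With the length trend removed, edgeR called 0 members in DLD1 as before.

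The kinase that fires origins split between its subunits. DBF4 (ENSG00000006634, chromosome 7, 87876216 to 87909541), the activating subunit, was called lower in HCT116, LoVo and HT29, and CDC7, the catalytic subunit, in no line, with log2 fold changes between -0.07 and -0.03. DBF4 had 66.6, 74.7, 69.9 and 67.3 CPM in HCT116 with 2-MiCit and 93.7, 101.7, 94.8 and 97.5 CPM in control (log2 fold change -0.48, SE 0.05, adjusted p = 0.000138). In LoVo it had 88.9, 91.5, 97.8 and 102.9 CPM with 2-MiCit and 111.9, 117.0, 116.9 and 115.4 CPM in control, which made it the single replication gene called in that line (log2 fold change -0.28, SE 0.06, adjusted p = 0.037). That call was lost without any of 5 of the 8 LoVo libraries, with adjusted p up to 0.149. In HT29 it had 51.8, 49.4, 51.1 and 52.0 CPM with 2-MiCit and 62.5, 60.3, 63.0 and 62.4 CPM in control. Those groups were separate and tight, and the library numbered 2 was the lowest rather than the highest in both (log2 fold change -0.28, SE 0.04, adjusted p = 0.00161). In SKCO1 (log2 fold change -0.06) and SW1417 (-0.08) it was not called.

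Of the polymerase and primase genes, 7 of 9 were called lower in HCT116 (POLA2 as well with the block), 4 in SKCO1 and none in the other lines. The largest log2 fold change of any member in HCT116 was that of POLA1, the catalytic subunit of polymerase alpha, with 44.3, 48.3, 41.5 and 48.4 CPM with 2-MiCit and 55.1, 77.3, 72.7 and 82.1 CPM in control (-0.65, SE 0.11, adjusted p = 0.00152). The control libraries spread widely there, and in SKCO1 POLA1 was not called (-0.05, adjusted p = 0.544). The 4 genes called in SKCO1 were the primase subunits PRIM1 and PRIM2 and the polymerase delta subunits POLD1 and POLD2, with log2 fold changes between -0.18 and -0.14. PRIM2 has near-identical copies in the genome, so its counts are uncertain. POLE, the catalytic subunit of polymerase epsilon, was called nowhere, while its partner POLE2 fell in HCT116 (log2 fold change -0.40, adjusted p = 0.00063).

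The clamp and its loader had 5 of 6 genes called in both HCT116 and SKCO1, all but the large subunit RFC1. With the block on library number, RFC1 was called lower in HCT116 and HT29. RFC5 (ENSG00000111445, chromosome 12, 118013588 to 118033130), a small loader subunit, had the smallest p of the 45 genes in HCT116. It had 83.6, 85.7, 83.9 and 81.1 CPM there with 2-MiCit and 124.1, 128.3, 123.5 and 127.0 CPM in control, a fall of 33.5% (log2 fold change -0.59, SE 0.04, adjusted p = 1.6e-05). In SKCO1 it had 78.1, 77.5, 79.1 and 81.1 CPM with 2-MiCit and 90.5, 89.8, 89.9 and 91.6 CPM in control (log2 fold change -0.20, adjusted p = 0.000134). Both pairs of groups were separate. In SW1417 it had 44.1, 43.1, 43.5 and 45.7 CPM with 2-MiCit and 48.8, 45.3, 48.7 and 49.4 CPM in control, overlapping by the second control library, which was the lowest of its group (log2 fold change -0.12, adjusted p = 0.0433). This call was lost without any of 6 of the 8 SW1417 libraries, with adjusted p up to 0.136.

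PCNA had 310.9, 286.9, 326.2 and 275.8 CPM in HCT116 with 2-MiCit and 416.0, 389.1, 368.5 and 374.9 CPM in control (log2 fold change -0.37, adjusted p = 0.0015). Its SKCO1 values were 142.7, 145.9, 143.9 and 144.6 CPM with 2-MiCit and 158.7, 159.1, 157.5 and 156.5 CPM in control (log2 fold change -0.13, adjusted p = 0.000558). Both were separate. In the remaining lines PCNA was not called, except as higher in HT29 with the block on library number.

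RFC4 and FEN1 had the smallest p of the 45 genes in SW948, where nothing was called, and both leaned upward. RFC4 had 52.6, 73.8, 53.8 and 50.1 CPM in SW948 with 2-MiCit and 47.7, 46.5, 48.9 and 43.4 CPM in control (log2 fold change 0.30, SE 0.12, adjusted p = 0.521). FEN1, the flap nuclease that trims lagging-strand fragments, had 213.5, 317.6, 238.9 and 236.6 CPM with 2-MiCit and 180.7, 185.7, 230.4 and 216.9 CPM in control (log2 fold change 0.31, SE 0.13, adjusted p = 0.521). The second 2-MiCit library was the highest for both genes. It had a slope of -0.24 log2 units per doubling of transcript length, the steepest of the SW948 libraries. With the length trend removed, the log2 fold change was 0.16 for RFC4 and 0.25 for FEN1 (adjusted p = 0.624 for both). Without that library it was 0.16 for RFC4 and 0.18 for FEN1 (adjusted p = 0.848 for both).

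Among the RPA genes, RPA1 and RPA3 were called lower in HCT116 (RPA2 as well with the block), RPA3 in HT29, and none in the other lines. RPA3 (chromosome 7, 7636518 to 7718607), the smallest subunit, had 31.6, 33.7, 29.04 and 28.8 CPM in HT29 with 2-MiCit and 36.9, 39.0, 35.9 and 35.0 CPM in control (log2 fold change -0.25, SE 0.06, adjusted p = 0.0264). All 4 lay below all controls, and the call was lost without any of 5 of the 8 libraries, with adjusted p up to 0.0824. In HCT116 its groups overlapped, at 51.1, 42.4, 54.1 and 38.6 CPM with 2-MiCit and 66.4, 58.9, 55.5 and 51.8 CPM in control (log2 fold change -0.32, SE 0.11, adjusted p = 0.0496).

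FEN1 and LIG1, which finish the lagging strand, were both called lower in HCT116. FEN1 had 178.2, 167.1, 199.4 and 173.9 CPM in HCT116 with 2-MiCit and 257.7, 252.7, 246.0 and 235.9 CPM in control (log2 fold change -0.47, adjusted p = 3e-04). LIG1, the ligase, ranged from 80.2 to 83.6 CPM with 2-MiCit and from 98.03 to 102.6 CPM in control (log2 fold change -0.28, adjusted p = 0.000732). In SKCO1 FEN1 was called (log2 fold change -0.12, adjusted p = 0.00405) and LIG1 was not (-0.06, adjusted p = 0.105).

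Of the fork factors, CLSPN (ENSG00000092853, chromosome 1, 35720218 to 35769967), the adaptor that passes the ATR checkpoint signal to CHK1, was called lower in 3 lines. It had 97.6, 104.9, 112.4 and 109.3 CPM in HCT116 with 2-MiCit and 140.9, 136.6, 152.0 and 153.7 CPM in control (log2 fold change -0.46, SE 0.06, adjusted p = 0.000322). In SW1417 it had 34.8, 35.1, 35.0 and 37.7 CPM with 2-MiCit and 41.1, 42.5, 40.1 and 44.3 CPM in control, the largest shift of the 45 genes in that line (log2 fold change -0.24, SE 0.04, adjusted p = 0.00265). Both pairs of groups were separate, as they were in SKCO1 at 37.1 to 39.4 CPM with 2-MiCit against 40.3 to 42.3 CPM in control (log2 fold change -0.11, adjusted p = 0.0275), a call that leaving out any of 5 of the 8 SKCO1 libraries ended (adjusted p up to 0.0876). In HT29 CLSPN had 17.5, 19.8, 16.0 and 14.6 CPM with 2-MiCit and 14.8, 17.0, 14.5 and 14.1 CPM in control, overlapping and not called (log2 fold change 0.17, adjusted p = 0.315). TIMELESS, of the fork protection complex, had log2 fold changes between -0.10 and 0.08 and no call.

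**Figure D4:**
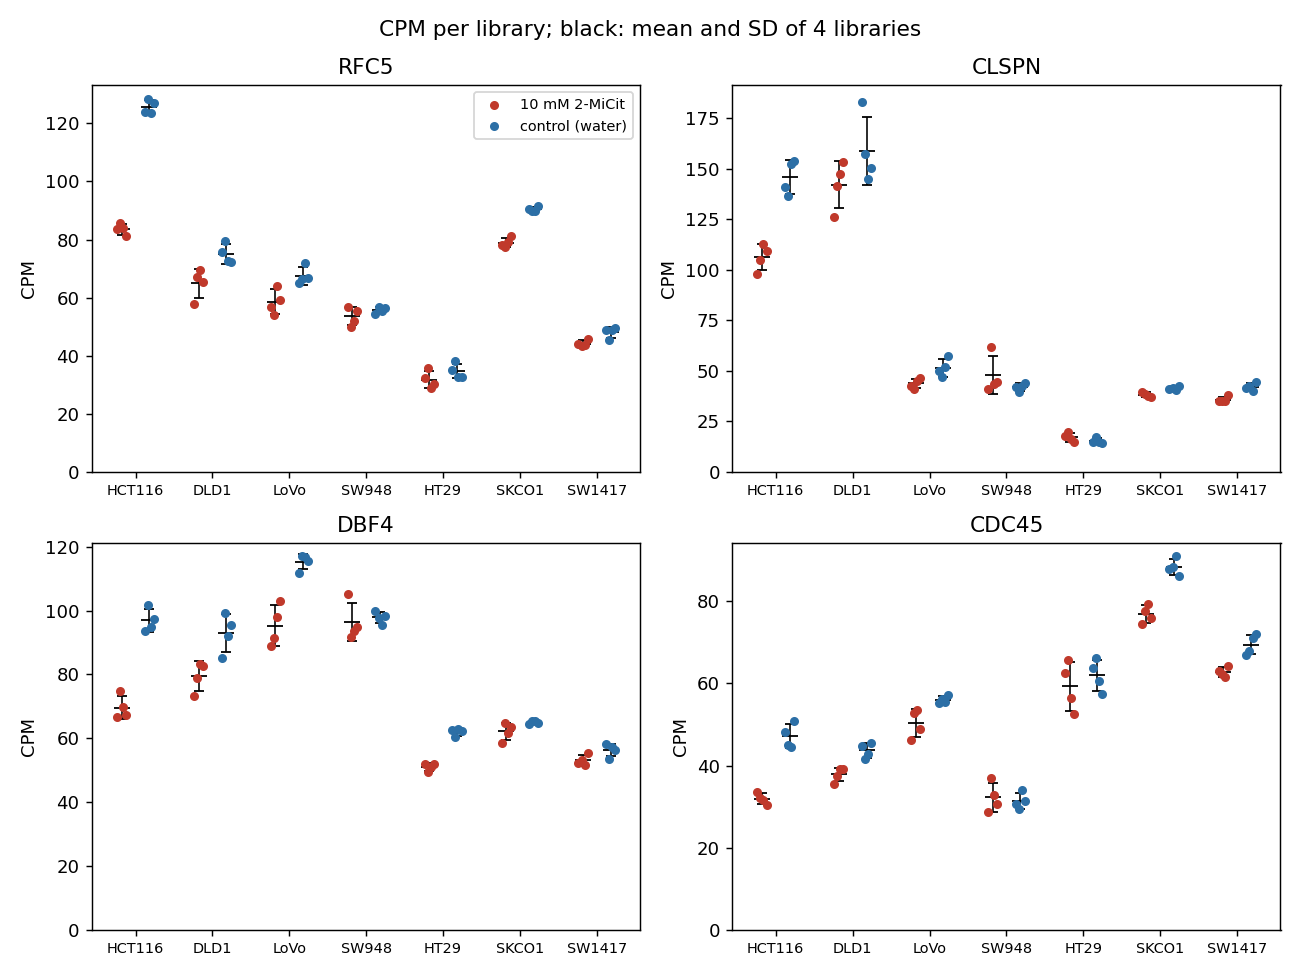
CPM of RFC5, CLSPN, DBF4 and CDC45 in every library, with 2-MiCit left of control in each line, points for libraries and black marks for the mean and SD of 4. The groups of all 4 genes are separate in HCT116, and in HT29 they are separate for DBF4 alone.

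Differences between lines in the effect of 2-MiCit were tested within each table. In the table of HCT116, DLD1, LoVo and SW948, 21 of the 45 genes had a treatment-by-line interaction, where 18% of all tested genes did. MCM7 had the smallest p (adjusted p = 3.75e-05), followed by CDC45 (adjusted p = 0.00045) and RFC5 (adjusted p = 0.000469). The effect in HCT116 was more negative than in SW948 for 23 genes (18.7% of all tested genes differed between these 2 lines, in either direction), than in DLD1 for 10 (8.34%) and than in LoVo for 10 (6.04%). DLD1 was more negative than SW948 for 10 genes (13.2%). Short transcripts read high in DLD1 control library 1 and SW948 2-MiCit library 2, with length slopes of -0.3 and -0.24. The part of these 2 libraries in that count was not tested. No member differed between DLD1 and LoVo (0.506%) or between LoVo and SW948 (0.038%). For MCM7 the effect in HCT116 minus that in SW948 was -0.47 on the log2 scale (SE 0.06, adjusted p = 4.13e-06), and minus that in LoVo -0.29 (adjusted p = 0.00261).

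In the table of HT29, SKCO1 and SW1417, 3 members had an interaction, DBF4 (adjusted p = 0.0102), CLSPN (adjusted p = 0.0255) and CDC6 (adjusted p = 0.0262), where 5.49% of all tested genes did. For 45 members, 3 is near that share. The count was larger with the block on library number, as given at the end. The directions differed between the 3 genes. For DBF4 the effect in HT29 minus that in SKCO1 was -0.21 (SE 0.05, adjusted p = 0.0124), so the effect in HT29 was the more negative one. For CDC6 the same difference was 0.30 (SE 0.08, adjusted p = 0.0282), so the effect in HT29 was the higher one. CLSPN differed between HT29 and SW1417 by 0.39 (SE 0.09, adjusted p = 0.0164). Over the pairs of lines, 2 members differed between HT29 and SKCO1, near the share of all tested genes (4.14%). Between HT29 and SW1417 4 members differed (3.44%), and between SKCO1 and SW1417 none did (1.03%).

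Other genes of DNA replication, outside the 45, were counted from a list of 37, of which 36 were tested in each line. In HCT116 19 of the 36 were called lower (18% of all tested genes) and 1 higher (19%). In SKCO1 19 were lower (10.8%), in SW1417 4 (4.05%), in LoVo 1 (0.702%) and in HT29 1 (3.02%). In DLD1 and SW948 none was (0%). NASP, a histone chaperone, had a log2 fold change of -0.49 in HCT116 (adjusted p = 4.2e-05), and UHRF1, which guides DNA methylation at the fork, -0.46 in HCT116 (adjusted p = 8.15e-05) and -0.16 in SKCO1 (adjusted p = 0.000296). TIPIN, the partner of TIMELESS, fell in HCT116 (-0.51, adjusted p = 0.000341), SKCO1 (-0.31, adjusted p = 0.000532) and LoVo (-0.36, adjusted p = 0.0315), where TIMELESS itself was not called. FAM111A, a protease at the fork, was the gene called higher, in HCT116 (0.22, adjusted p = 0.0177), and is named because it was the exception.

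In HT29 more of the mitosis genes than of the replication genes were called lower. Of 37 mitosis genes, 27 were called lower there, against 3 of the 45 replication genes and 3.02% of all tested genes. The mitosis counts were 22 in HCT116 (18% of all tested genes), 23 in SKCO1 (10.8%) and 16 in SW1417 (4.05%). LoVo had 1 (0.702%), and DLD1 and SW948 none (0%). In SW1417, too, the share was larger for mitosis, 43.2% against 17.8%. In SKCO1 it was 62.2% against 55.6%, and in HCT116 59.5% against 82.2%. CDC20, the activator of the anaphase-promoting complex, had a log2 fold change of -0.45 in HT29 (adjusted p = 0.000395), and TOP2A, a topoisomerase used in both processes and counted with the other replication genes, -0.27 (adjusted p = 0.00106); both are named after their values were seen. The median over the mitosis list in HT29 was -0.23, against -0.03 over the replication genes and -0.001 over all tested genes. The difference between the lists was not tested, and the replication genes also had the library numbered 2 standing high in both groups. The median over the replication genes in HT29 was -0.121 without 2-MiCit library 2 and 0.008 without control library 2. Without both it was -0.063. The median over the mitosis genes was not computed without these libraries.

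**Figure D5:**
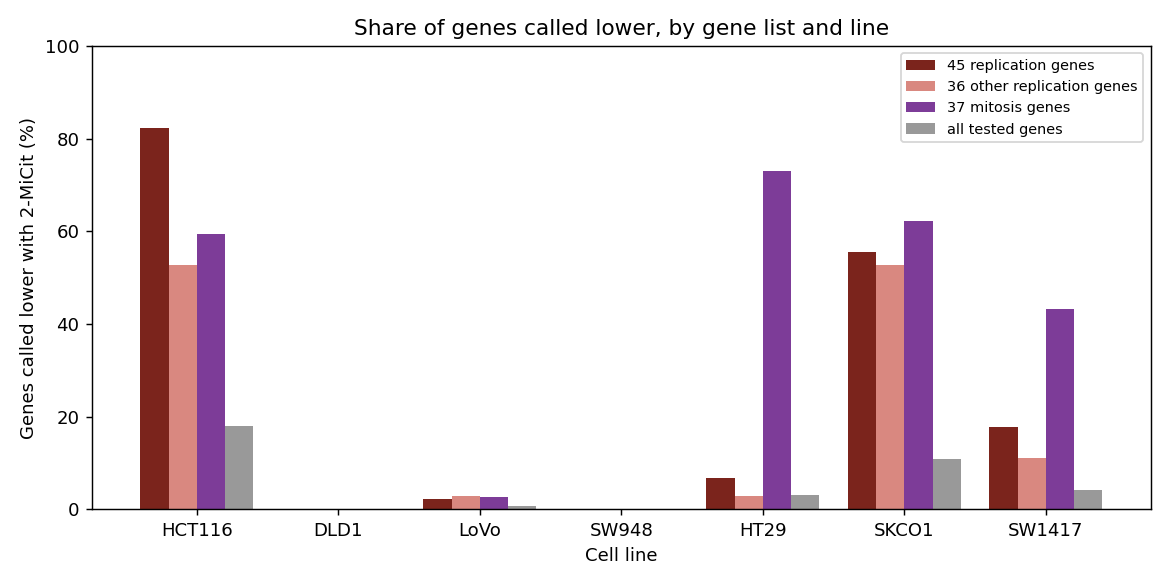
Share of genes called lower with 2-MiCit in each line, in percent, for the 45 replication genes, 36 other replication genes, 37 mitosis genes and all tested genes. In HT29 the mitosis bar stands at 73% and the bar of the 45 replication genes at 6.67%, while in HCT116 these are 59.5% and 82.2%. In SW1417 they are 43.2% and 17.8%.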

How the data were processed

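RNA-seq was analysed from 56 libraries of 7 colorectal cancer lines. The authors deposited raw counts per gene in 2 tables (whole numbers). They also deposited normalized values, a signal on a linear scale, used here only in an alternative. DESeq2, Salmon 1.5.0, Trimmomatic 0.39 and bcl2fastq 2.20.0 were used on GRCh38.p13, per the submitters' processing notes. Salmon shares reads between matching transcripts, so near-identical and overlapping genes are uncertain. Depth was 13.8 to 19.4 M counts per library in the first table and 29.1 to 45.4 M in the last. No 2 libraries of a group agreed within sampling noise.

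Symbols, coordinates and transcript lengths come from GENCODE release 29 (GRCh38). Within each line, 2-MiCit was tested against control by edgeR 4.0.16 under R 4.3.3 (filterByExpr, TMM, robust quasi-likelihood F test, two-sided), with Benjamini-Hochberg adjustment over all tested genes and calls below 0.05. Every adjusted p is from edgeR unless another tool is named. Levels of the members are CPM with TMM factors, and SE comes from the same fit. Marker sums and LYZ are CPM of the total counts, without TMM factors. Treatment-by-line interaction was tested in 1 edgeR fit per table, and lines of different tables were not compared. The test was run on simulated counts of each line, with 1.25-fold changes set in 100 genes and 1.5-fold changes in 100 others. It called 20% of the 1.25-fold changes in HCT116, 0% in DLD1, 15.2% in LoVo and 1% in SW948. In HT29 it called 47.5%, in SKCO1 60.6% and in SW1417 61%. In the data, 2489 genes were called lower in HCT116, so the adjusted threshold there differed from the simulation. These shares thus do not give what the test finds in the data.

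Alternatives were RLE and upper quartile scaling, no filter, a stricter filter (5 CPM in 4 libraries), DESeq2 1.42.0, 1 fit per table, a replicate block and each library left out. After seeing the data, 3 were added: limma 3.58.1 on log2 of the authors' scaled counts plus 1, removal of the trend with transcript length, and HT29 without both libraries numbered 2. In HCT116 same-numbered libraries deviated together (correlations of deviations 0.255 to 0.47), so the numbers were taken to pair them there. In HT29 the correlations were weaker, at 0.054 to 0.248. The own number was the best match in 7 of 8 comparisons in both HCT116 and HT29, and in 6 of 8 in SKCO1. In each line other than HCT116 and HT29, at least 1 correlation was 0.029 or lower.

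The members and gene lists were chosen with earlier results of these data known. By rule, per-library values are given for the 3 called members with the smallest p in each line (2 where none was called), the 4 called in the most lines and the 3 with the smallest interaction p of each table. Per-library values of ORC1, MCM4, MCM6, POLA1, PCNA and further values of these genes in other lines were added after the values were seen.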

Additional observations from a re-analysis of the deposited data

Results flagged for a closer look

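Of 86 groups of 4 libraries checked for the named genes, 5 had 1 library far from the other 3, where chance gives about 1 in 20. In SW948 the second 2-MiCit library was far above the others for CLSPN (61.7 CPM, others 41.0 to 44.5) and RFC4 (73.8 CPM, others 50.1 to 53.8). It is also the library with the steepest length trend in SW948. CDC6 was high in the second 2-MiCit library of SKCO1 (122.7 CPM, others 119.0 to 119.5), and CLSPN in the fourth of SW1417 (37.7 CPM, others 34.8 to 35.1). RFC5 was low in the second control library of SW1417 (45.3 CPM, others 48.7 to 49.4).

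The effect of 2-MiCit differed between lines, by the treatment-by-line interaction in edgeR, for 24 member and table pairs. In the first table the adjusted p was 3.75e-05 for MCM7, 0.00045 for CDC45, 0.000469 for RFC5, 0.00071 for LIG1, 0.00093 for MCM2 and 0.00101 for MCM3. It was 0.00207 for GINS2, 0.00221 for MCM4, 0.00359 for GINS3, 0.00419 for DBF4, 0.00508 for FEN1, 0.00583 for MCM5, 0.00845 for CLSPN and 0.00997 for POLD2. It was 0.0112 for MCM10, 0.016 for CDC6 and RFC2, 0.018 for RFC4, 0.0197 for POLD1, 0.0327 for PCNA and 0.0414 for POLE2. In the last table it was 0.0102 for DBF4, 0.0255 for CLSPN and 0.0262 for CDC6.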

How the results depend on the processing

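In HCT116 the count of replication genes called lower stayed within 1.5 times 37 under every alternative run. The other counts moved. DESeq2 gave 6 in DLD1 (1.34% of all genes with an adjusted p) and 6 in LoVo (3.82%). With 1 fit over the table, 13 were called in DLD1 (3.92% of all tested genes) and 9 in SKCO1 (6.28%). In HT29 that fit gave 6 (7.89%) and in SW1417 1 (1.41%). The authors' scaled counts with limma gave 14 in SKCO1 (5.15%), 1 in SW1417 (0.923%) and 0 in HT29 (1.28%). Removing the length trend gave 3 in LoVo (3.35%), and upper quartile scaling 5 in SW1417 (3.37%). In HT29 same-numbered libraries deviated together less strongly than in HCT116. With the replicate block, HT29 had 5 lower (7.45% of all tested genes) and 2 higher (8.28%). The 2 were PCNA (log2 fold change 0.15, adjusted p = 0.00761) and MCM6 (0.21, adjusted p = 0.0105), each higher with 2-MiCit within all 4 numbers. MCM4 was also higher within all 4 numbers, without a call (0.21, adjusted p = 0.0675). Under the block the interaction of the last table held for 17 genes, against 5 with the stricter filter. The share of all tested genes with an interaction was not counted under the block or under that filter. Under that block HCT116 had 41 lower, and no other count moved by over 1.5 times. Leaving out 1 library at a time gave 29 to 36 in HCT116 (14% to 18.8% of all tested genes). It gave 0 to 4 in LoVo (0.0289% to 3.91%) and 1 to 3 in HT29 (1.09% to 3.71%). SKCO1 had 23 to 27 (7.76% to 11.7%), SW1417 3 to 13 (2.13% to 4.71%), and DLD1 and SW948 0 (at most 0.146%). The sign reversed for CDC45 in SW948 (log2 fold change -0.0316 with the length trend removed, and -0.0284 to 0.0945 over the libraries left out) and for DBF4 in SW948 (0.0218, and -0.0675 to 0.0023), neither called. Of 738 values of named genes under alternatives, 679 kept direction and side of the threshold, 45 lost the call and 10 gained it. The cause of these changes was not tested. The biological coefficient of variation was largest in DLD1 (0.183) and SW948 (0.159), and its part in the counts was not tested.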
